A study of Mus musculus with 4 samples.

Results

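The small leucine-rich proteoglycans (SLRPs) are secreted matrix proteins built around a run of leucine-rich repeats. The genes described here were Dcn, Bgn and Aspn of class I, Lum, Fmod, Prelp, Kera and Omd of class II, Ogn of class III and Podn of class V. They are 10 of the 45802 gene symbols in the deposited expression table, and all 10 had a value in all 4 libraries, as had 14415 symbols in all. They were chosen by family and with the log2 values of these same libraries known, both between the populations and between the library numbers, so that their values are given as a description and without a test.

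SLRPs bind collagen fibrils and control how thick the fibrils become and how they are spaced. Most carry chains of chondroitin, dermatan or keratan sulfate, and several hold growth factors such as TGFβ in the matrix or signal through receptors on the cell surface. The periosteum, the fibrous sheath of bone, is rich in collagen, and members of the family are used as markers of fibroblasts, tendon, cartilage and bone matrix.

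Total RNA was sequenced from cultured mouse periosteal cells of 2 populations, PDGFRα reporter+ and PDGFRα reporter-, with 2 libraries each. The cells came from femurs and tibias of male Pdgfrα-mT/mG mice of 9 to 10 weeks. The mice received tamoxifen at 150 mg/kg daily for 5 days and were dissected 14 days after the last dose. Per the labels, cells of 3 to 6 animals were pooled (the study's methods give another range), and they were grown for 1 passage with 10 ng/mL basic fibroblast growth factor and sorted as negative for CD31, CD45 and Ter119. In both populations, a CreER driven by the Pdgfra promoter had been exposed to tamoxifen, and mGFP+ cells (reporter+) had recombined whereas tdTomato+ cells (reporter-) had not, so that the reporter records promoter activity at the time of tamoxifen and not in the culture. Pdgfra itself, which encodes the receptor, had log2 values of 7.78 and 7.62 in the reporter+ libraries and of 7.87 and 7.44 in the reporter- libraries. The populations overlapped for this gene.

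The values are log2 expression after quantile normalization by the authors, which gives every library the same quartiles (-1.47, 1.48 and 3.00 over the genes with a value). Whether they are per length is not given in the sources used here, so the level of a gene is compared only between libraries. Where marker genes are summed, the weight of each gene in the sum depends on this unit, and the sums too are compared only between libraries. Each library carried the number 2 or 3 in the column headings, and the values are given below in that order. Libraries of the same number correlated more closely across the 14415 genes (Pearson's r = 0.984 and 0.982) than libraries of the same population (0.952 for reporter+ and 0.957 for reporter-); these correlations run over genes, and genes do not replicate each other. The stromal markers Col1a1, Col1a2 and Col3a1 were among the measured genes of all libraries, with Col3a1 between 9.37 and 10.8, and 9 of 9 stromal markers had a value in all 4. Depth cannot be read from the values, and separate cultures are not named in the labels, so that p-values measure only the spread between these libraries, which may be technical. A lower value in such bulk RNA cannot tell fewer cells of a type from less RNA per cell.

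Single members stood out in a pair of patterns, which are described gene by gene. Lum, Dcn and Kera were higher in both reporter+ libraries than in both reporter- libraries. Fmod and Prelp, and to a lesser extent Aspn and Bgn, were lower in both libraries numbered 3 than in both numbered 2, whichever the population. Ogn, Omd and Podn followed neither pattern.

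**Figure D1:**
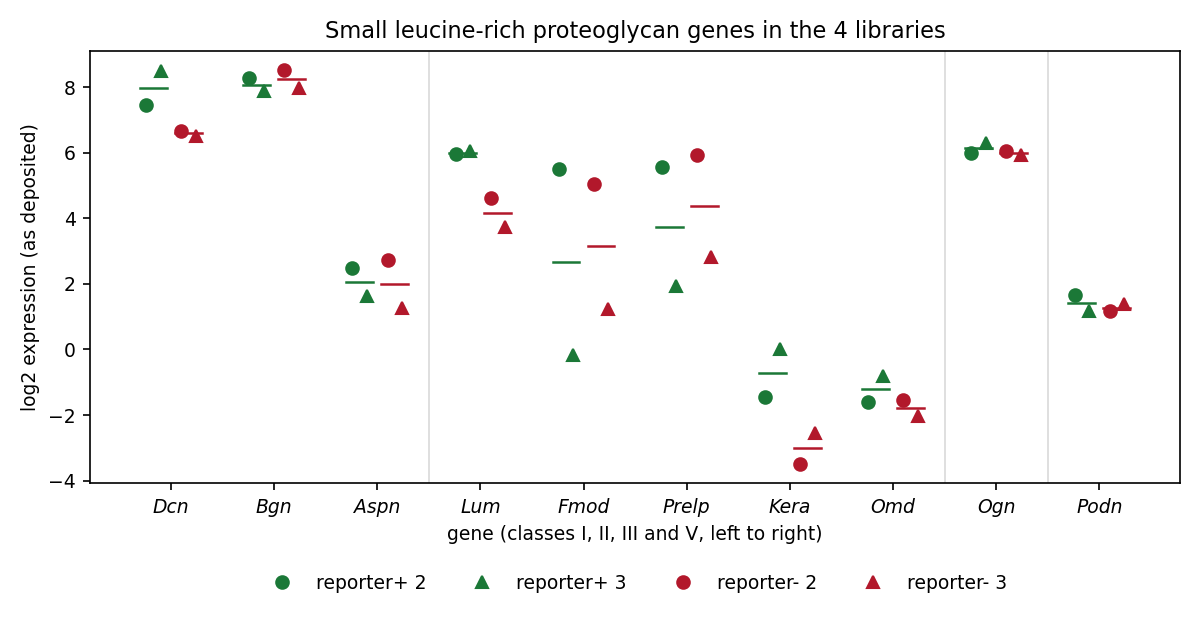
Log2 expression (vertical axis, as deposited) of the 10 SLRP genes (horizontal axis, by class) in each of the 4 libraries, with circles for number 2, triangles for number 3 and short lines for the mean of each population of 2 libraries. Green and red points are apart for Dcn, Lum and Kera, whereas circles and triangles are apart for Fmod (5.49 and 5.06 against -0.16 and 1.23) and Prelp.

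The bases before the start site are shown first for the members that were lower in number 3, because their position and sequence are what can be set beside that pattern. The windows are the 250 bases before the RefSeq start on GRCm38.p6, written 5′ to 3′ on the strand of the gene. Capitals mark matches to any of 5 motifs that were chosen after the values had been seen, each searched on both strands: a TATA box (TATAAA or TTTATA), AP-1 (TGANTCA), an E-box of the scleraxis type (CAGATG or CATCTG), RUNX (TGTGGT or ACCACA) and SOX (ACAATG or CATTGT).
Fmod (chr1:134037004-134037253, plus strand): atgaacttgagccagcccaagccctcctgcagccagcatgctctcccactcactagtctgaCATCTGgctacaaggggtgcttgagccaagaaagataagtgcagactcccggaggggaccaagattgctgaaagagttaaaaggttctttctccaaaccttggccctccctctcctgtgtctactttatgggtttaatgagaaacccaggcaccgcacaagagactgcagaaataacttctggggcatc
Prelp (chr1:133921402-133921651, minus strand): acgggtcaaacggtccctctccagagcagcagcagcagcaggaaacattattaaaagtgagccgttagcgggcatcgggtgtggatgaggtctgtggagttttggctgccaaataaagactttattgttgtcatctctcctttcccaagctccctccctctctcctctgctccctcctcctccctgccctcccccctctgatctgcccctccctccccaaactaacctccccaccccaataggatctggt
Bgn (chrX:73483351-73483600, plus strand): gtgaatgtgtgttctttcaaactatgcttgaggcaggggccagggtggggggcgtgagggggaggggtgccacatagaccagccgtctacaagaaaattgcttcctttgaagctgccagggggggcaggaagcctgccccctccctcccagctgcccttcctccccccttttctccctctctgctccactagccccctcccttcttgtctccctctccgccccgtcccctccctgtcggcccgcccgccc
Aspn (chr13:49544193-49544442, plus strand): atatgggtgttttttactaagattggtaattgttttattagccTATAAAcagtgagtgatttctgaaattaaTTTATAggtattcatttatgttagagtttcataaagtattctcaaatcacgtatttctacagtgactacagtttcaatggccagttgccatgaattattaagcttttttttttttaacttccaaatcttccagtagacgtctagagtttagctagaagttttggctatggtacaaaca

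Fmod held 1 E-box of this type, 189 bases before its start, and 14.4% of the 32851 windows in the table held at least 1. Aspn held 2 TATA matches, 207 and 178 bases before its start, and 12.4% of all windows held this motif. Prelp and Bgn held none of the 5 motifs in these windows, which says only that these letters are absent there. The AP-1, RUNX and SOX letters, found in 6.75%, 14.0% and 10.7% of all windows, were in none of the 4 windows shown. Members outside this pattern held the same motifs: 1 of the 2 windows of Podn had the E-box, 82 bases before its start, and Ogn had 2 overlapping TATA matches, 229 and 227 bases before its start, and 1 RUNX match at 65 bases. Kera and Omd held none. Of the 10 members, 8 matched the promoter table by symbol, and Lum and Dcn were not among them.

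Lum encodes lumican, a keratan sulfate proteoglycan that keeps collagen fibrils thin and evenly spaced. It had log2 values of 5.96 and 6.04 in the reporter+ libraries and of 4.61 and 3.73 in the reporter- libraries. The reporter+ libraries lay close together and well above both others, and the means were 6.00 ± 0.062 and 4.17 ± 0.63 (SD, n = 2). The difference of 1.83 on the log2 scale (3.56-fold higher in reporter+) was 1.34 within number 2 and 2.32 within number 3.

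Dcn encodes decorin, which coats collagen fibrils and binds TGFβ. Its values were 7.47 and 8.49 in reporter+ cells and 6.67 and 6.51 in reporter- cells. Both reporter+ libraries were again above both reporter- libraries, with most of the spread on the reporter+ side (7.98 ± 0.72 against 6.59 ± 0.11, SD, n = 2). The difference was 1.39 (2.62-fold), with 0.80 within number 2 and 1.98 within number 3.

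Kera encodes keratocan, a keratan sulfate proteoglycan best known from the cornea. Its values were low, -1.46 and 0.02 in reporter+ cells and -3.49 and -2.55 in reporter- cells. The populations did not overlap, although number 3 was above number 2 in both. The difference of 2.30 (4.92-fold) was 2.02 within number 2 and 2.58 within number 3, but it was 0.55 once a pseudocount of 1 was added on the linear scale. Among the genes with a mean log2 value below 0, such as Kera, the difference between populations had an SD of 0.69 across genes, against 0.22 among genes at 0 or above.

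Thus 3 of the 10 members had both reporter+ libraries above both reporter- libraries, and 0 had both below. Of all 14415 genes, 7.59% were above and 8.1% below in this sense. Within both numbers, reporter+ was higher for 3 members (the same Lum, Dcn and Kera) and lower for 2 (Bgn and Prelp), where the background was 22.1% and 24.8%, and the other 5 changed sign between numbers, as did 7662 of the 14415 genes (differences of 0 included). The median difference over the 10 members was 0.14, and over all genes it was -0.0035. The median rested on single libraries, since it became 0.69 without the reporter+ library numbered 3 and 0.88 without the reporter- library numbered 2. With 1 library left out, fewer values have to be apart and a count can only stay or rise. The count above was then 6 without the reporter- library numbered 2 (25.7% of all genes), 5 without the reporter+ library numbered 2 (30.6%) or 3 (26.8%) and 4 without the reporter- library numbered 3 (29.9%). The count below was 3 without the reporter+ library numbered 2 (29.7%) or the reporter- library numbered 3 (25.8%) and otherwise 0. Since the members were chosen with this contrast known, the counts are a description.

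**Figure D2:**
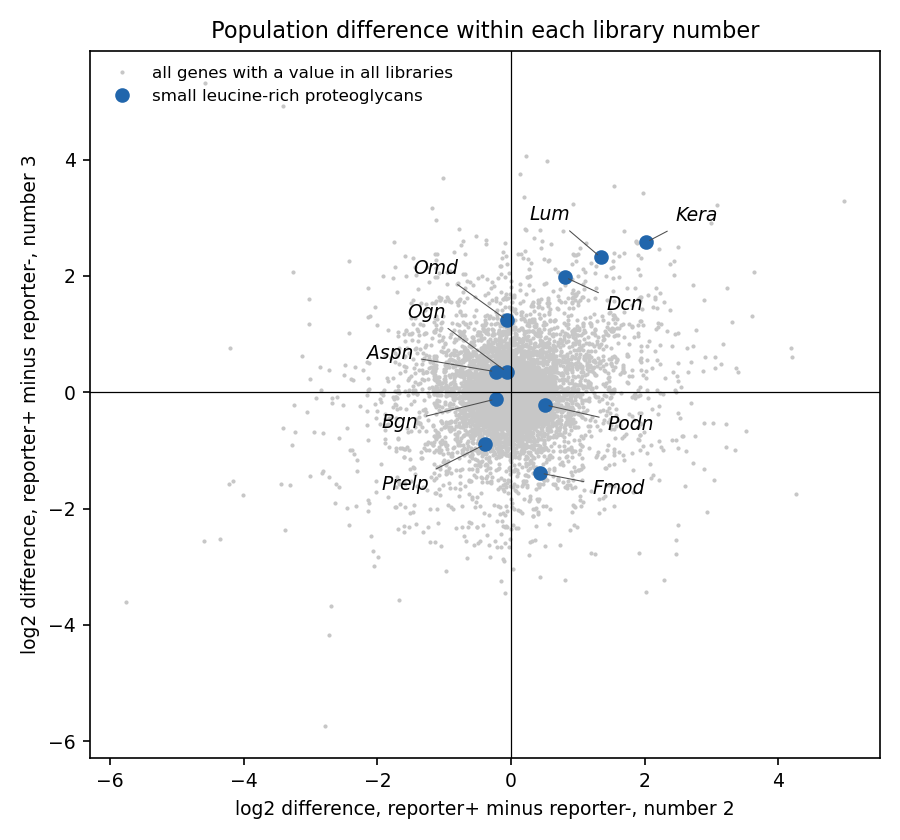
Log2 difference between populations (reporter+ minus reporter-) within number 2 (horizontal axis) and within number 3 (vertical axis), each point 1 gene, with SLRP genes in blue over all 14415 genes in grey. Lum, Dcn and Kera lie far up and right (0.80 to 2.02 within number 2 and 1.98 to 2.58 within number 3), and Fmod, Podn, Ogn, Omd and Aspn have opposite signs on the axes.

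Fmod encodes fibromodulin, which takes part in collagen fibril assembly in tendon and cartilage. Its values were 5.49 and -0.16 in reporter+ cells and 5.06 and 1.23 in reporter- cells. Number 3 was far below number 2 in both populations, with log2 differences of -5.65 in reporter+ and -3.83 in reporter-. Over both populations the mean fell by 4.74 from number 2 to number 3, and only 6 of the 14415 genes had a lower value of this difference. Between populations the difference was 0.43 within number 2 and -1.39 within number 3, and the overall -0.48 was small beside the SDs of 4.00 and 2.71 (n = 2 each).

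Prelp encodes a heparin-binding SLRP (prolargin) that links basement membranes to the collagen beneath them. It had 5.56 and 1.93 in reporter+ cells and 5.95 and 2.82 in reporter- cells. As for Fmod, both libraries numbered 3 lay below both numbered 2, here with -3.64 in reporter+ and -3.13 in reporter-. The mean over both populations fell by 3.38, and 26 genes had a lower value of this difference. Reporter+ was below reporter- within each number (-0.38 and -0.89), yet the populations overlapped, since the numbers differed by more.

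Aspn encodes asporin, a class I member that binds collagen and TGFβ. Its values were 2.49 and 1.63 in reporter+ cells and 2.72 and 1.27 in reporter- cells, and number 3 minus number 2 was -0.87 and -1.45. The populations overlapped, with a difference of 0.06 that was -0.23 within number 2 and 0.35 within number 3. Bgn encodes biglycan, a chondroitin or dermatan sulfate proteoglycan of bone that can act on Toll-like receptors when it is released. Its values were 8.29 and 7.87 in reporter+ cells and 8.51 and 7.99 in reporter- cells. Bgn therefore differed little between populations (-0.17), and number 3 minus number 2 was -0.41 in reporter+ and -0.52 in reporter-.

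In these 4 of 10 members (Fmod, Prelp, Aspn and Bgn) both libraries numbered 3 were below both numbered 2, and in 0 both were above. The shares over all genes were 28.8% below and 36.4% above. The median difference of number 3 minus number 2 was -0.27 over the members and 0.05 over all genes, with -0.16 within reporter+ and -0.51 within reporter-. The count of 4 was near these shares, and it is the size of the differences of Fmod and Prelp that set them apart. What the numbers stand for is not stated in the labels, so that a preparation, an animal pool or a library batch cannot be told apart.

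**Figure D3:**
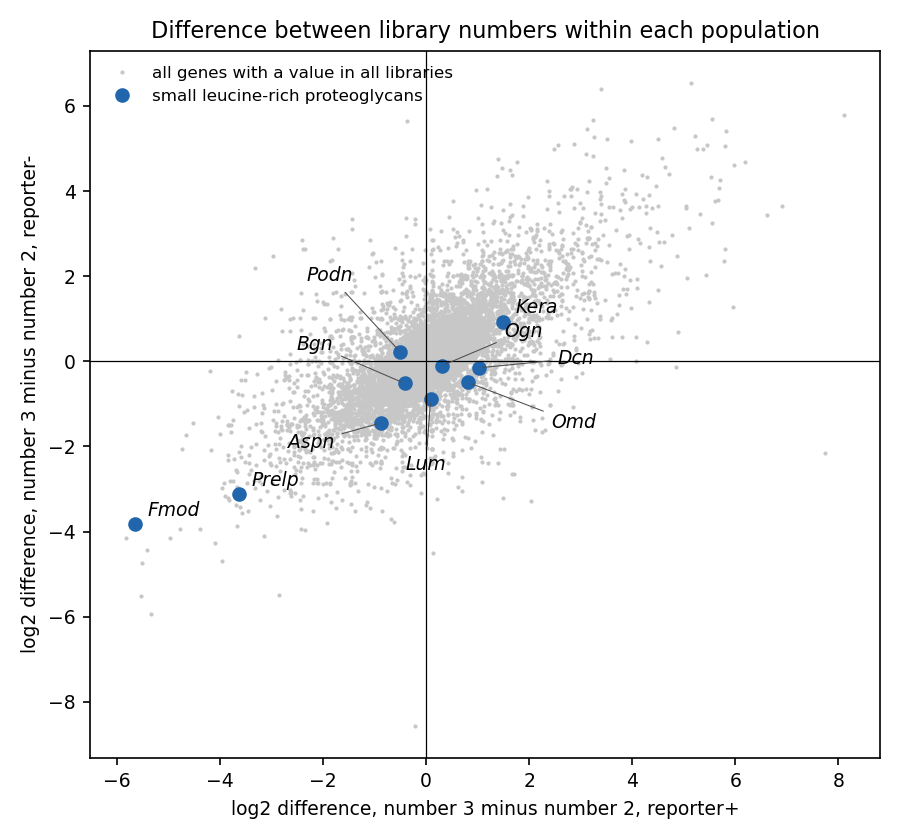
Log2 difference of number 3 minus number 2 in reporter+ (horizontal axis) and reporter- cells (vertical axis), each point 1 gene, with SLRP genes in blue over all 14415 genes in grey. Fmod (-5.65 and -3.83) and Prelp (-3.64 and -3.13) lie far down and left, and Kera (1.49 and 0.93) is the only one of the 10 members above 0 on both axes.

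Ogn, Omd and Podn overlapped both between populations and between numbers. Ogn encodes osteoglycin (mimecan), a class III member found in bone and other connective tissue, and had 5.98 and 6.29 in reporter+ cells and 6.04 and 5.94 in reporter- cells. Its 4 values thus lay within 0.35 of each other. Omd encodes osteomodulin (osteoadherin), a keratan sulfate proteoglycan of mineralized matrix, and had -1.61 and -0.79 in reporter+ cells and -1.54 and -2.04 in reporter- cells. The populations overlapped for Omd, with -0.067 within number 2 and 1.24 within number 3. Podn encodes podocan, a class V member that binds collagen, and had 1.67 and 1.16 in reporter+ cells and 1.16 and 1.38 in reporter- cells. Its differences were 0.51 within number 2 and -0.22 within number 3, opposite in sign.

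Many of these genes lie side by side. The positions are RefSeq gene spans on GRCm38.p6, which cover all transcript models of a gene, so that those of Kera, Prelp and Optc reach past the start that the promoter table uses. On chromosome 10, Dcn (97479500 to 97518163), Lum (97565501 to 97572703), Kera (97606962 to 97613688) and Epyc (97644068 to 97681908) follow each other on the plus strand within 202 kb. All 4 were higher in reporter+ cells, by 0.59 to 2.30. Epyc encodes epiphycan, a class III SLRP of growth cartilage that was not among the 10, and had 0.52 and 1.32 in reporter+ cells and 0.46 and 0.21 in reporter- cells. Its difference was 0.59, limma SE 0.37, adjusted p = 1 over all genes, and most of it lay within number 3 (1.12 against 0.06 within number 2). The nearest measured protein-coding genes on either side, Btg1 (857 kb away) and Atp2b1 (1233 kb away), differed by 0.11 and 0.09.

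On chromosome 13, Ecm2, Aspn, Omd and Ogn lie within 120 kb on the plus strand, and all 4 overall differences were positive but small to moderate (0.06 to 0.59). The 0.59 of Omd, a gene of low values, became 0.16 with a pseudocount of 1 on the linear scale. Ecm2, an SLRP-related matrix gene, had -0.13 and -0.71 in reporter+ cells and -0.50 and -1.01 in reporter- cells. The flanking genes Ippk and Nol8 differed by 0.09 and 0.01. Cenpp, which encodes a centromere protein and spans this cluster on the other strand, differed by -0.38.

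On chromosome 1, Optc, Prelp and Fmod lie within 151 kb, and the start sites of Prelp (minus strand) and Fmod (plus strand) used above are 116 kb apart and point away from each other. All 3 were lower in number 3, with differences from -1.09 (Optc, opticin) to -4.74 (Fmod). Optc had low values, -3.65 and -5.14 in reporter+ cells and -3.92 and -4.61 in reporter- cells. Among genes with a mean log2 value below 0, number 3 minus number 2 had an SD of 1.26 across genes. The flanking Btg2, which encodes an antiproliferative protein, and Atp2b4, which encodes a calcium pump, were also lower in number 3 (-1.12 and -1.63). The libraries were made by a stranded protocol, but whether the counting used strand is not given in the sources used here. This bears on the measured SLRP genes that overlap a gene on the other strand. They are Ecm2, Aspn, Omd and Ogn (Cenpp), Prelp and Optc (Gm15851), Epyc (Gm10754), Podn (Mir6397) and Chadl (L3mbtl2). The summaries by cluster and the choice of neighbours were made after the values had been seen.

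**Figure D4:**
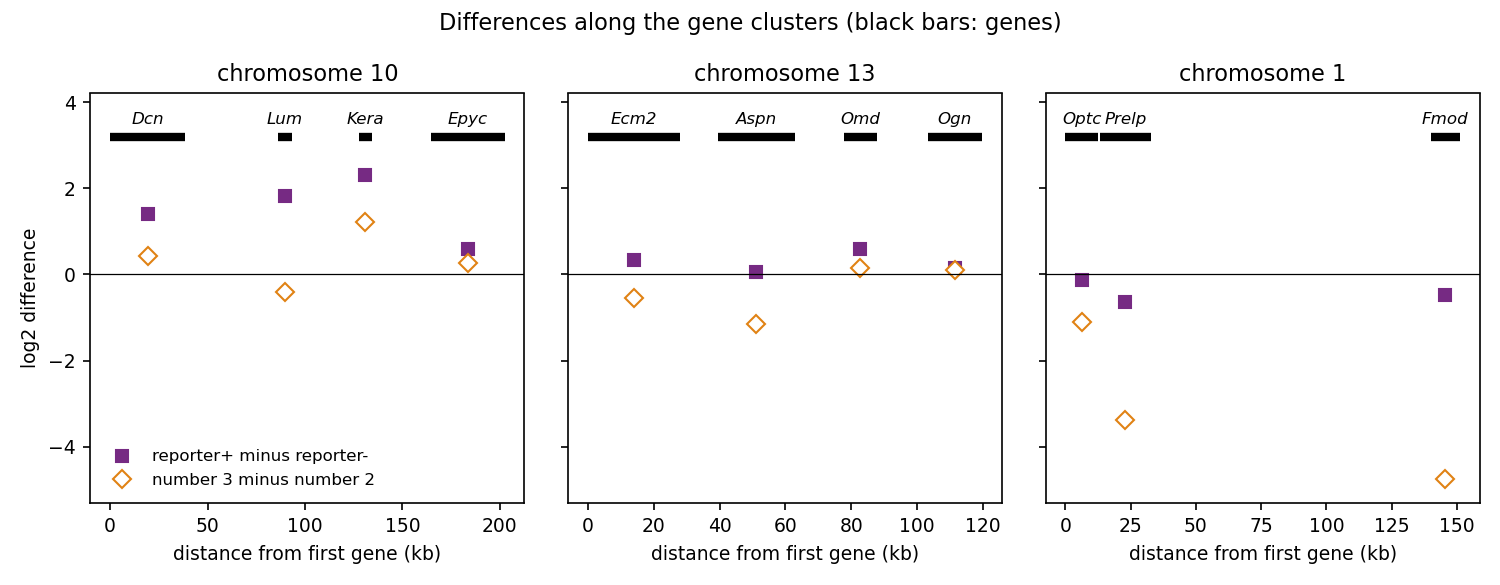
Log2 differences (vertical axis) along the 3 SLRP gene clusters, by distance from the start of the first gene in kb (horizontal axis), with filled squares for reporter+ minus reporter- and open diamonds for number 3 minus number 2, each from 4 libraries. The squares are above 0 for all 4 genes on chromosome 10 (0.59 to 2.30), and on chromosome 1 the diamonds go down to -3.38 for Prelp and -4.74 for Fmod.

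Of 9 further SLRP genes, 7 had a value in all 4 libraries. Chad (chondroadherin) had no value in any library, and Nepn (nephrocan) had none in the reporter- library numbered 3. Of the 7, Epyc and Nyx (nyctalopin, difference 0.67 at values below -4) had both reporter+ libraries above, and Chadl (chondroadherin-like, -0.83) had both below. Over all genes, 7.59% were above and 8.1% below in this sense. Chadl too had low values, -3.24 and -3.66 in reporter+ cells and -2.89 and -2.36 in reporter- cells. Tsku, which encodes tsukushi, differed by -0.09. Podnl1, the closest relative of Podn, had 0.62 and -2.16 in reporter+ cells and 0.24 and -0.75 in reporter- cells. It was lower in number 3 in both, with a mean difference of -1.88, whereas Podn differed by -0.14.

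The genes that build, cut and bind SLRPs were tested in the limma fit over all genes. No gene of the 14415 was called at an adjusted p below 0.05 (0 genes, 0%), and 131 (0.909%) had an unadjusted p below 0.05. This fit counts the difference between numbers as spread within a population. With the number as a block, limma called 29 genes (22 higher and 7 lower), and 913 had an unadjusted p below 0.05. With the block but no trend it called 0, and 941 had an unadjusted p below 0.05. The calls below are from the fit without a block unless stated. In 6 lists of SLRP biology with 80 genes, 77 could be tested, 0 were called and 4 had an unadjusted p below 0.05. Of these, 3 were higher (Mmp9, Mmp12 and Tgfb2) and 1 lower (Kdr) in reporter+ cells. With the block in limma, 14 of the 77 had an unadjusted p below 0.05, and with the block but no trend 10 had. Of 23 genes of chondroitin and dermatan sulfate synthesis, 0 were called, and the median difference was -0.01. Chpf and Chpf2, which polymerize chondroitin, had differences of -0.32 and 0.05, and Dsel, which encodes a dermatan sulfate epimerase-like protein, had 0.37, each with adjusted p = 1 in limma.

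Of 8 genes of keratan sulfate synthesis, the chain carried by Lum, Fmod, Kera and Omd, 7 were tested and 0 called, with a median of 0.03. Among 12 proteases that mature or cleave SLRPs, 0 were called and the median was 0.23. Mmp9, which encodes a gelatinase, had 3.21 and 3.89 in reporter+ cells and 2.18 and 1.41 in reporter- cells. Its difference was 1.75, limma SE 0.37, adjusted p = 1, although the populations did not overlap. Mmp3, which encodes stromelysin, had the largest difference of the list (2.01, with 1.91 within number 2 and 2.12 within number 3), and Mmp13, a collagenase, had 1.19 within each number. Both overlapped between populations because number 3 was higher, and both had adjusted p = 1 in limma. With the number as a block limma called both, and with the block but no trend it called neither. Bmp1, the protease that removes the propeptide of several SLRPs, had 4.93 and 5.45 in reporter+ cells and 4.87 and 5.48 in reporter- cells, a difference of 0.01.

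Of 14 receptors and growth factors bound by SLRPs, 0 were called and the median was 0.04. Tgfb2, which encodes a TGFβ that decorin and biglycan bind, differed by 0.51, limma SE 0.15, adjusted p = 1. Of 14 collagens bound by SLRPs, 0 were called and the median was -0.05. Their differences ran from -1.51 (Col2a1, the main collagen of cartilage) to 1.09 (Col14a1, which binds to fibril surfaces). In reporter+, 4 of the 14 were higher and 4 lower within both numbers. Both counts were near the shares over all genes, 22.1% higher and 24.8% lower. Col12a1 (0.52) and Col3a1 (0.39) were among the 4 that were higher, and Col1a1 and Col1a2, the chains of the main fibril collagen, had -0.12 and -0.06.

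Markers of other cells differed along both contrasts. Over all genes, 22.1% were higher and 24.8% lower in reporter+ within both numbers. Both reporter+ libraries were above both reporter- libraries in 7.59% of all genes and below in 8.1%. Beside the higher Lum, Dcn and Kera of reporter+ cells, 12 of 12 macrophage markers were higher in reporter+ within both numbers, with 8 not overlapping. Their summed level was 7.94 and 8.17 in reporter+ against 6.58 and 7.54 in reporter- on the log2 scale, and Lyz2 had 7.65 and 7.88 against 6.27 and 7.25, although cells bearing CD45 had been sorted out. Smooth muscle and pericyte markers were lower in reporter+ within both numbers in 7 of 8 (summed 4.06 and 4.81 against 5.19 and 5.43), among them Tagln with 1.61 and 3.52 against 3.49 and 3.99. Of 10 endothelial markers, 7 had a value in all libraries and 5 of these were lower within both numbers (Pecam1, Cdh5, Kdr, Tek and Emcn). Pecam1 had -4.68 and -4.79 in reporter+ against -1.99 and -1.11 in reporter-, and Cdh5 and Emcn differed by -4.26 and -3.44. The summed endothelial level was 1.40 and 1.70 (8 genes each) against 1.71 and 2.69 (10 genes each), and Egfl7, which differed by -0.04, was at 1.00 to 1.29 in all libraries. Of 9 skeletal muscle markers, 4 had a value in all libraries. Of these, 3 had both reporter+ libraries below both reporter- libraries (Myh1 -4.68, Acta1 -2.01 and Des -2.00). Myh1 had very low values, -8.02 and -6.97 in reporter+ against -2.26 and -3.36 in reporter-. Tnnt3 had -0.39 and -0.36 in reporter+ against -0.73 and -0.35 in reporter-. The summed skeletal muscle levels were 0.44 and 0.16 against 1.68 and 0.72 from 7, 5, 8 and 6 genes. Of 7 osteoblast markers, 6 had a value in all libraries. Alpl (0.80) and Ibsp (1.35) had both reporter+ libraries above, whereas Runx2 (0.01), Sp7 (0.09), Col1a1 (-0.12) and Dmp1 (-0.37) overlapped. The difference of Ibsp was 2.51 within number 2 and 0.18 within number 3. The summed osteoblast level (7.67 and 7.49 against 7.87 and 7.51) was close to that of Col1a1 alone (7.64 and 7.44 against 7.85 and 7.48), which is also a stromal gene. Like Kera, the genes Pecam1, Cdh5, Emcn, Myh1, Acta1, Des and Ibsp had a mean log2 value below 0, where differences spread more widely across genes. Erythroid markers were near absent, with 3 of 7 giving any value and Epor between -5.89 and -3.69. The part of these markers in the differences of Lum, Dcn and Kera was not tested.

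Beside the lower Fmod and Prelp of number 3, 4 of 5 chondrocyte markers with a full set of values were lower in both libraries numbered 3, among them Sox9 with 1.97 and 2.27 in number 2 (reporter+ and reporter-) and 1.29 and 1.48 in number 3, and Matn1 had no value. Col11a2 was higher in both libraries numbered 3, with -2.35 and -2.45 in number 2 (reporter+ and reporter-) and -1.56 and -1.81 in number 3. The summed chondrocyte level was 3.62 and 4.00 in number 2 and 1.85 and 2.51 in number 3. Of 6 tendon markers, 4 were lower in both libraries numbered 3 (summed 6.61 and 6.36 in number 2, 5.46 and 4.79 in number 3), namely Scx, Mkx, Thbs4 and Col11a1. The other tendon markers were mixed: Tnmd had -6.02 and -1.18 in reporter+ and -1.82 and -1.94 in reporter-, and Fibin had 3.54 and 4.30 in reporter+ and 4.48 and 2.71 in reporter-. The adipocyte markers went the other way, from 2.30 and 2.09 in number 2 to 5.56 and 7.45 in number 3 (sums of 2, 3, 5 and 5 genes with a value), with Fabp4 at 1.82 and 1.63 against 5.07 and 6.90. Number 3 minus number 2 was positive in 12 of 12 macrophage markers (median 0.66), and 4 of them were higher in both libraries numbered 3. Of 8 smooth muscle and pericyte markers, 4 were higher and 1 (Cspg4) was lower in both libraries numbered 3. Over all genes, 36.4% were higher and 28.8% lower in this sense. The part of these markers in the levels of Fmod and Prelp was not tested.

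**Figure D5:**
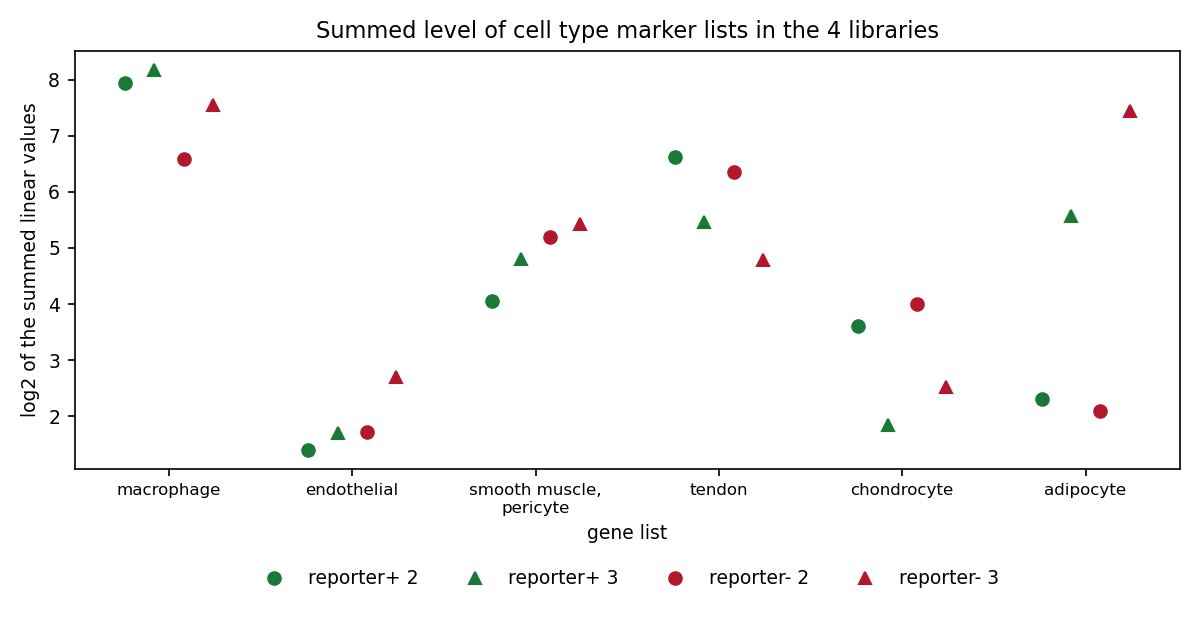
Log2 of the summed linear values (vertical axis) of 6 lists of cell type markers (horizontal axis) in each of the 4 libraries, with green for reporter+, red for reporter-, circles for number 2 and triangles for number 3; genes without a value in a library are left out of its sum. Macrophage markers are higher in both reporter+ libraries (7.94 and 8.17) than in the reporter- libraries, and the sums of tendon and chondrocyte markers are lower and that of adipocyte markers higher in number 3 in both populations.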

How the data were processed

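Total RNA of 4 libraries (2 PDGFRα reporter+ and 2 PDGFRα reporter-) was sequenced by the authors. The deposited values are log2 expression per gene symbol, which the authors had quantile normalized, with a blank where there was no signal. The submitters' processing notes name bcl2fastq 2.17.1.14, Partek 7.0 and GRCm38.p6. The linear unit, aligner, counting and filters are not given in the sources used here, so that depth is unknown and no counting interval is given. The column headings number the libraries 2 and 3, whereas the labels number the replicates 1 and 2, and libraries were assigned to their population only.

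The members and gene lists were chosen with earlier results of these data known. The difference was the mean of reporter+ minus the mean of reporter- over genes with a value in all libraries. Blanks were not filled in. Genes were tested two-sided with limma 3.58.1 in R 4.3.3 (eBayes with a trend, no block). The p-values were adjusted after Benjamini and Hochberg over the whole table, and the threshold was 0.05. An exact permutation test of 1 gene cannot go below a two-sided p of 0.333 here and was not used. Named genes were the members, the other SLRPs, from each list of SLRP biology up to 3 genes with the largest difference among those with a mean of at least 0 and no overlap, the marker with the highest mean value in each cell type list (a choice that depends on the unit), and the neighbours of the clusters. Others in the text were chosen after their values were seen, such as Bmp1, Mmp3, Mmp13, the collagens and most single markers. Ccn4 was found under its older symbol. Overlapping genes came from GENCODE, and positions (gene spans) and promoter windows from RefSeq. Alternatives were pseudocounts of 1 and 0.1, centring, other sets of genes, no trend, a block and leaving out each library. Tables were summarized with pandas 2.3.3 and numpy 2.4.6 (Python 3.11.15) and drawn with matplotlib 3.10.9.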

Additional observations from a re-analysis of the deposited data

Results flagged for a closer look

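In 5 members, the difference of reporter+ minus reporter- had opposite signs in the libraries numbered 2 and in those numbered 3, and this change of sign was not tested, because each number holds 1 library of each population. Over all genes, 7662 of 14415 had opposite signs or a difference of 0 in this sense, so that 5 of 10 is near the background. Fmod went from 0.43 within number 2 to -1.39 within number 3. Podn likewise went from 0.51 to -0.22. The 3 members of the chromosome 13 cluster went the other way, with Omd at -0.067 and 1.24, Ogn at -0.062 and 0.35 and Aspn at -0.23 and 0.35.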

How the results depend on the processing

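Leaving out 1 library at a time kept Lum (1.39 to 2.27), Dcn (0.88 to 1.90), Kera (1.55 to 3.04) and Omd (0.18 to 1.00) positive, whereas Bgn, Fmod, Ogn, Prelp, Aspn and Podn changed sign in at least 1 such setting (Fmod from -3.30 to 2.35). These settings leave the numbers unbalanced between populations. The median of the members then ranged from 0.095 to 0.88, the members above from 4 to 6 (25.7% to 30.6% of all genes) and those below from 0 to 3 (25.8% to 32.5%). A pseudocount of 1 brought Kera from 2.30 to 0.55 between populations and from 1.21 to 0.33 between numbers, and it brought Omd from 0.59 to 0.16 and Fmod from -0.48 to -0.20 between populations. With the heading number as a replicate block, limma called 29 genes (22 higher and 7 lower) and 2 of the lists of SLRP biology (Mmp3 and Mmp13). In this setting 913 genes had an unadjusted p below 0.05. Without the trend, added after seeing the data, the block called 0 and 0, with 941 genes at an unadjusted p below 0.05. Deviations of libraries with the same number correlated across genes (0.681), but the labels do not say that numbers pair the libraries. In the remaining settings limma called 0 genes, with 62 to 273 at an unadjusted p below 0.05. Depth is unknown and each population has 2 libraries, so differences of the size of those of Ogn or Podn could not be told from the spread.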

Other observations

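Other genes of SLRP biology differed between the library numbers, as a description and without a test. Of 12 proteases that mature or cleave SLRPs, 9 were higher in both libraries numbered 3 than in both numbered 2 and 0 were lower. Mmp3 had 6.73 and 10.5 in reporter+ cells and 4.82 and 8.37 in reporter- cells, and Mmp2 had 6.94 and 8.44 in reporter+ cells and 7.10 and 8.16 in reporter- cells. Of 14 collagens bound by SLRPs, 8 were lower and 5 higher in number 3. Col2a1 had 2.86 and -1.33 in reporter+ cells and 3.32 and 1.23 in reporter- cells. Col3a1 went the other way, with 9.85 and 10.8 in reporter+ cells and 9.37 and 10.5 in reporter- cells. Over all genes, 28.8% were lower and 36.4% higher in number 3 in this sense.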
